A study of Mus musculus with 12 samples.

Results

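The effector fate transcription factors described here were a list of 10 genes, chosen by symbol: Irf4, Irf8, Batf, Batf3, Tbx21, Eomes, Prdm1, Id2, Runx3 and Zeb2. Read counts were at hand for 9 of the 10, among 14323 gene symbols. Batf3 was not analysed here.

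RNA was measured in naive CD8+ T cells from the spleens of 3 wild type mice, sorted by surface staining as CD44- cells that carried CD8 and the αβ T cell receptor. The cells were cultured for 6 h, 100000 per well, on immobilized antibodies, and an adapted CEL-seq protocol read each transcript near its 3′ end. Each mouse gave 1 library in each of 4 groups: isotype alone, anti-LAIR-1 alone, anti-CD3 with isotype, and anti-CD3 with anti-LAIR-1, each antibody coated at 2.5 µg/ml. Anti-CD3 triggers the T cell receptor complex, and the anti-LAIR-1 antibody, clone 2C7, is an agonist of LAIR-1, an inhibitory receptor for collagen that leukocytes carry. The methods name no costimulatory antibody for these cultures, and the study's general methods name adult C57BL/6N mice, with no age given for these 3 mice. The design therefore has 1 time point, 1 dose and 3 animals, and the natural ligand of LAIR-1 was not used.

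A naive CD8+ T cell that meets its antigen turns on transcription factors that decide how far it becomes a short-lived killer or a memory cell. IRF4 is induced in proportion to the strength of the T cell receptor signal and binds DNA with BATF, an AP-1 family factor. The T-box factors T-bet (Tbx21) and EOMES drive cytotoxic genes, ZEB2 acts downstream of T-bet in terminal effector cells, and BLIMP-1 (Prdm1), ID2 and RUNX3 carry the effector programme forward, whereas TCF-1, LEF-1 and BCL6 belong to the naive and memory states.

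Stretches of the promoters of 4 of the genes are shown because these are the genes of the list that rose with anti-CD3. The sequences come from RefSeq on GRCm38.p6, read 5′ to 3′ on the gene's strand, and lie outside annotated exons at bases -120 to -21 from the gene start (Tbx21: -200 to -101). Capitals mark a match to a searched motif.
Irf4 promoter (chr13:30749113-30749212, plus strand): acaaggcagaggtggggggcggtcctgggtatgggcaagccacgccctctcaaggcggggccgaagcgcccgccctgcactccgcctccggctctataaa
Irf8 promoter (chr8:120736238-120736337, plus strand): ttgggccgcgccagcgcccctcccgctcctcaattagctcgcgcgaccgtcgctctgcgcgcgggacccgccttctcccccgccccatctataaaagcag
Tbx21 promoter (chr11:97115432-97115531, minus strand): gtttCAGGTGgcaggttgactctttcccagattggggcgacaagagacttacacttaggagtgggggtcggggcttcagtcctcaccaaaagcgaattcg
Zeb2 promoter (chr2:45117463-45117562, minus strand): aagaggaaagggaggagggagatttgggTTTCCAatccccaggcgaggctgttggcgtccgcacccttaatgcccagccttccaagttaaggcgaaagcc
In the Zeb2 stretch the capitals mark the NFAT motif TGGAAA, which lies on the opposite strand and so reads TTTCCA. The capitals of the Tbx21 stretch mark the E-box CAGGTG. The Irf4 and Irf8 stretches held none of the letters searched.

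Over the 300-base promoter windows of all 10 genes (15 windows, since some genes have more than 1 annotated start), 6 motifs were searched on both strands. The NFAT motif TGGAAA was in a window of 2 genes, Eomes and Zeb2, and in 21.4% of 32817 promoters. The AP-1 motif TGANTCA was in a window of Prdm1 and in 1 of Zeb2, against 7.81% of all promoters. The RUNX motif TGTGGT was in windows of Batf and Runx3 (16.8% of all), and CAGGTG in windows of Irf8, Tbx21, Prdm1 and Runx3 (20.2% of all). The CRE motif TGACGTCA (1.79% of all) and the T-box motif AGGTGTG (5.84% of all) were in no window of the 10 genes. The E-box and T-box motifs share the letters AGGTG and can overlap. These are matches of letters, and nothing about binding was measured.

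Libraries held between 1781218 and 7725545 counts, so that 3 counts corresponded to 0.404 to 1.61 CPM (counts scaled to library size with TMM normalization factors), and replicates of a group correlated at r = 0.962 to 0.989 across genes. The cells were CD8+ T cells by their markers: the 9 measured markers summed to 6130 to 6730 CPM with isotype alone and to 6250 to 6660 CPM with anti-LAIR-1 alone. With anti-CD3 and isotype they summed to 2500 to 2720 CPM, with 9 of 9 called lower than unstimulated (36.1% of all genes). With both antibodies they summed to 2940 to 3380 CPM, with 8 of 9 called lower than unstimulated (36.3% of all genes). Between the stimulated groups, 4 of the 9 were called higher with anti-LAIR-1 and 1 lower (3.90% and 1.86% of all genes). Mitochondrial genes took 17.6 to 20.9% of counts without anti-CD3 and 11.5 to 13.2% with it, in step with the response described next, and their part in it was not tested. Markers of other cells stayed low. The 11 dendritic and myeloid markers summed to 7.47 to 18.3 CPM, the 6 B cell markers to 1.35 to 10.2 CPM, the 4 CD4 T cell markers to at most 4.84 CPM and the 2 NK cell markers to at most 1.06 CPM. Of the dendritic and myeloid genes, Clec9a, Flt3 and Tyrobp had at most 2 counts in any group. With anti-CD3 and isotype Cd74 had 81 counts, H2-Aa 37, Cd68 29, Xcr1 12 and Itgax 11. Cd74 averaged 2.9 CPM with isotype alone and 5.6 CPM with anti-CD3 and isotype. It averaged 5.3 CPM with anti-LAIR-1 alone and 4.3 CPM with both antibodies. The 5 memory CD8 markers summed to 84.4 to 101 CPM without anti-CD3 and to 124 to 155 CPM with it. Xbp1 made up nearly all of the plasma cell list, which summed to 48.1 to 61.9 CPM without anti-CD3 and 122 to 146 CPM with it.

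Anti-CD3 moved nearly every one of these factors within 6 h. With isotype, Irf4, Irf8, Tbx21 and Zeb2 rose, Batf, Id2 and Runx3 fell, and Eomes did not pass the test. The same 7 genes moved in the same directions with anti-LAIR-1. Of 8 factors tested (edgeR quasi-likelihood test, adjusted p under 0.05), 4 were higher and 3 lower in each comparison. Among all genes tested, 35.3% were higher and 36.1% lower with isotype, and 36.4% and 36.3% with anti-LAIR-1. Irf8, Tbx21 and Zeb2 passed the filter on low counts because of their stimulated libraries, so the counts describe the list and show nothing particular to it. In bulk RNA, fewer cells expressing a gene and less RNA per cell cannot be told apart. CPM are also scaled shares of a library, so every rise or fall is relative to the other genes. Total RNA per cell was not at hand, so a lower share need not be less RNA per cell.

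**Figure D1:**
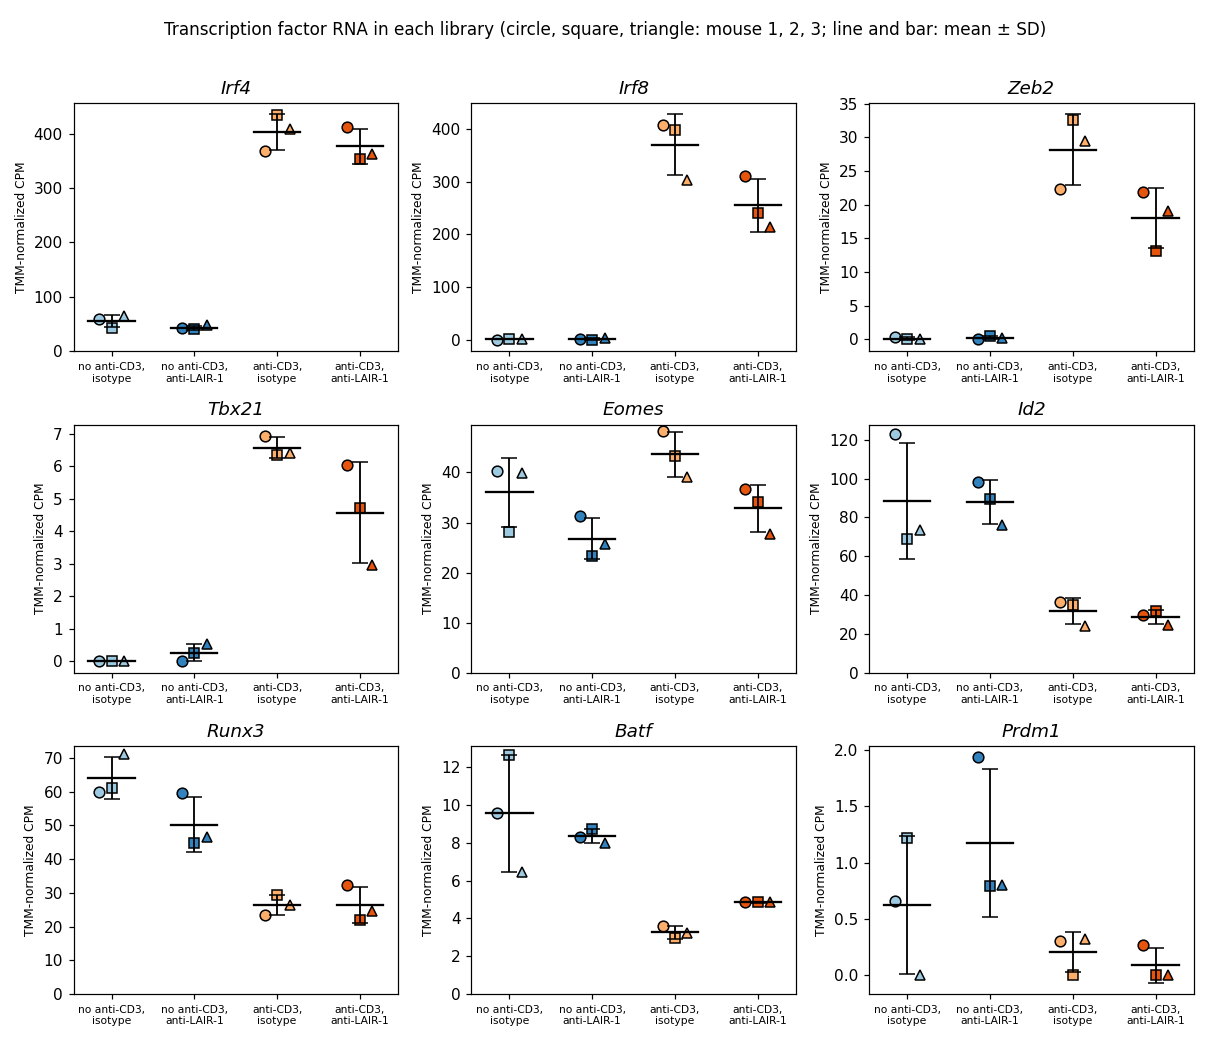
TMM-normalized CPM (y axis, linear, 1 scale per gene) of the 9 measured factors in the 4 groups (x axis), with 1 point per library, marked by mouse, and the mean ± SD of 3 libraries. Irf4, Irf8, Zeb2 and Tbx21 are high in both anti-CD3 groups, Id2, Runx3 and Batf are low in them, and the Eomes ranges overlap between stimulated and unstimulated libraries.

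Irf4 (chr13:30749226-30766976, plus strand, GRCm38) was present before stimulation and rose with it. The 3 mice had 59.5, 42.8 and 64.1 CPM with isotype alone and 369, 434 and 408 CPM with anti-CD3 and isotype. With anti-LAIR-1 alone they had 43.2, 40.3 and 47.6 CPM, and with both antibodies 412, 354 and 363 CPM. The stimulated and unstimulated ranges lay far apart, while the isotype and anti-LAIR-1 ranges overlapped in both states. The rise was 7.14-fold with isotype (log2 2.84, SE 0.13, adjusted p = 2.1e-15) and 8.59-fold with anti-LAIR-1 (log2 3.10, SE 0.10, adjusted p = 4.37e-15). The difference between these responses did not pass the interaction test (log2 0.24, 95% interval -0.11 to 0.58, adjusted p = 0.638).

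Irf8 (chr8:120736358-120756694, plus strand), a relative of Irf4 that dendritic cells and B cells use for their development and that activated CD8+ T cells also induce, went from a few counts to more than 200 CPM. With isotype alone the mice had 1.32, 2.85 and 2.69 CPM and with anti-LAIR-1 alone 2.49, 0.53 and 5.08 CPM, from 16 and 30 counts in all. With anti-CD3 and isotype they had 408, 397 and 304 CPM, and with both antibodies 310, 241 and 213 CPM. No unstimulated library came near a stimulated one, and among the stimulated libraries the anti-LAIR-1 values lay below the isotype values except for mouse 1 with anti-LAIR-1, which just exceeded mouse 3 with isotype. On summed counts the rise was 165-fold with isotype (95% counting interval 101 to 288) and 97.3-fold with anti-LAIR-1 (68.1 to 144). The second rests on few unstimulated counts: the fitted log2 change, 6.55, was 7.40 without mouse 3 with anti-LAIR-1 alone. The 11 dendritic and myeloid markers summed to 8.96 to 18.3 CPM with isotype alone and to 11.4 to 18.2 CPM with anti-CD3 and isotype. Cd74, the 1 of them tested in this comparison, rose by 0.88 on the log2 scale (edgeR adjusted p = 0.0486), and with anti-LAIR-1 its change was -0.27 (adjusted p = 0.539). The part of such cells in the Irf8 level was not tested.

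Batf (chr12:85686669-85709087, plus strand), the AP-1 partner of IRF4, went the other way from Irf4. Its levels were 9.58, 12.6 and 6.46 CPM with isotype alone and 3.62, 2.96 and 3.21 CPM with anti-CD3 and isotype. With anti-LAIR-1 they were 8.30, 8.74 and 8.02 CPM alone and 4.85, 4.89 and 4.86 CPM with anti-CD3. The stimulated ranges lay below the unstimulated ones, and the 2 stimulated groups did not overlap either. Batf fell by 1.61 on the log2 scale with isotype (SE 0.35, adjusted p = 2.67e-04) and by 0.78 with anti-LAIR-1 (SE 0.26, adjusted p = 0.0108). The second of these falls lost its call in DESeq2 (adjusted p = 0.0884), in DESeq2 with the mouse as a block (0.182) and after thinning every library to the smallest total, where it was -0.33 (edgeR adjusted p = 0.475). These values rest on 46 to 93 counts per group, and the interaction did not pass the test (log2 0.80, 95% interval -0.05 to 1.66, adjusted p = 0.458).

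Tbx21 (chr11:97098071-97115331, minus strand), which encodes T-bet, was at or near 0 before stimulation. It had 0 counts in the 3 libraries with isotype alone and 0, 0.26 and 0.53 CPM with anti-LAIR-1 alone, from 3 counts. With anti-CD3 it reached 6.94, 6.35 and 6.42 CPM with isotype and 6.06, 4.72 and 2.96 CPM with anti-LAIR-1. All 6 stimulated libraries lay above all 6 unstimulated ones, and the anti-LAIR-1 values lay below the isotype values. With isotype, a floor of 3 counts over the unstimulated group would give a ratio of 15.9, and the lower 95% counting limit was 12.7. The edgeR fit of this comparison gave an adjusted p of 5.87e-07. With anti-LAIR-1 the ratio of summed counts was 17.9 (95% counting interval 5.91 to 88.2). The edgeR log2 change there was 4.00 (adjusted p = 1.47e-05), and 4.88 without mouse 3 with anti-LAIR-1 alone. Tbx21 passed the filter on low counts because of its stimulated libraries, so the edgeR p-values are not separate support for the rise.

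Eomes (chr9:118478212-118486132, plus strand), the other T-box factor, was not called with anti-CD3. It stood at 40.3, 28.1 and 39.8 CPM with isotype alone, and at 48.3, 43.4 and 39.2 CPM with anti-CD3 and isotype. With anti-LAIR-1 it stood at 31.3, 23.3 and 25.7 CPM alone and at 36.8, 34.1 and 27.7 CPM with anti-CD3. The stimulated and unstimulated ranges overlapped in both conditions. The log2 difference was 0.23 with isotype (95% interval -0.10 to 0.56, adjusted p = 0.207) and 0.30 with anti-LAIR-1 (-0.02 to 0.63, adjusted p = 0.0865), where it was higher in 3 of 3 mice. The second of these passed in edgeR with no filter on low counts (adjusted p = 0.0221), without mouse 1 with anti-LAIR-1 alone (0.0302) and without mouse 3 with both antibodies (0.0203). That is 1 of 10 other settings and 2 of 6 fits without a library. Over the 10 settings this log2 difference ranged from 0.09 to 0.39. With isotype it ranged from 0.0033 to 0.32, and 0 of 10 settings passed. An antisense gene, Gm33460, has an exon within the last 500 bases of Eomes, and it was not stated whether the counting used strand.

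Zeb2 (chr2:44983632-45117395, minus strand), a zinc finger repressor, was induced from almost no counts. The libraries with isotype alone had 0.33, 0 and 0 CPM and those with anti-LAIR-1 alone 0, 0.53 and 0.27 CPM, from 1 and 3 counts. With anti-CD3 and isotype the mice had 22.3, 32.6 and 29.5 CPM, and with both antibodies 21.9, 13.2 and 19.0 CPM. The stimulated libraries lay far above the rest, and the highest anti-LAIR-1 value lay just under the lowest isotype value. The ratio of summed counts was 212 with isotype (95% counting interval 37.8 to 8390) and 67.9 with anti-LAIR-1 (23.0 to 331). The edgeR log2 changes were 7.35 (adjusted p = 9.96e-12) and 5.94 (adjusted p = 1.1e-09). They were 9.72 without mouse 1 with isotype alone and 6.81 without mouse 2 with anti-LAIR-1 alone. The first of these leaves 0 counts in the unstimulated group, so its size depends on the prior count of the fit. Zeb2 passed the filter on low counts because of its stimulated libraries, so the edgeR p-values are not separate support for the rise. Zeb2 shares its locus with Zeb2os and other genes, none of which has an exon in the last 500 bases of Zeb2.

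Id2 (chr12:25093799-25097140, minus strand), an inhibitor of E proteins that supports effector survival, fell. It was at 123, 68.9 and 73.7 CPM with isotype alone and at 36.5, 34.7 and 23.9 CPM with anti-CD3 and isotype. With anti-LAIR-1 it was at 98.5, 89.3 and 76.2 CPM alone and at 29.9, 31.9 and 24.7 CPM with anti-CD3. Every stimulated value lay below every unstimulated one, and isotype and anti-LAIR-1 values overlapped in both states. The falls were -1.56 (SE 0.19, adjusted p = 1.2e-07) and -1.61 (SE 0.13, adjusted p = 1.15e-09) on the log2 scale.

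Runx3 (chr4:135120652-135177990, plus strand), which maintains the CD8 lineage and its cytotoxic programme, fell as well. Levels were 59.8, 61.1 and 71.1 CPM with isotype alone and 23.5, 29.4 and 26.3 CPM with anti-CD3 and isotype. With anti-LAIR-1 they were 59.5, 44.8 and 46.5 CPM alone and 32.4, 22.1 and 24.7 CPM with anti-CD3. The stimulated libraries lay below the unstimulated ones, and without anti-CD3 the anti-LAIR-1 values lay under the isotype values, with 59.5 against 59.8 CPM at the nearest. The falls were -1.29 (SE 0.15, adjusted p = 3.71e-08) and -0.92 (SE 0.16, adjusted p = 3.28e-05) on the log2 scale.

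Prdm1 (chr10:44437177-44528501, minus strand), which encodes the repressor BLIMP-1 of terminal effector cells, did not pass edgeR's filter on low counts in any comparison. It had 5 counts over the 3 libraries with isotype alone, 13 with anti-LAIR-1 alone, and after stimulation 3 with isotype and 2 with anti-LAIR-1. No rise with anti-CD3 was detectable at this depth: the ratio to the unstimulated group was 0.309 with isotype (95% counting interval 0.0479 to 1.59). With anti-LAIR-1 it was 0.0947 (0.0104 to 0.418), and these groups did not overlap. DESeq2, which keeps such genes, called this fall (log2 -3.46, SE 1.56, adjusted p = 0.0498), from 13 and 2 counts, and not with the mouse as a block (adjusted p = 0.0602). Such intervals cover counting error only, because reads were not stated to be collapsed to molecules.

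**Figure D2:**
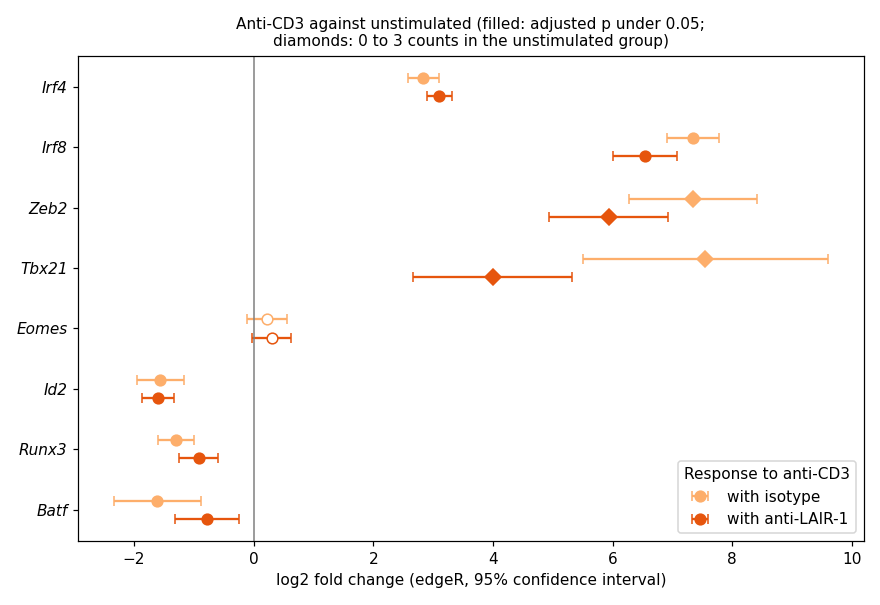
Log2 fold change with anti-CD3 (x axis, edgeR estimate with 95% confidence interval) for the 8 tested factors (y axis), with isotype and with anti-LAIR-1. Irf4, Irf8, Zeb2 and Tbx21 lie to the right of 0 and Id2, Runx3 and Batf to the left, in both series. For Zeb2 and Tbx21, drawn as diamonds, the unstimulated groups held 0 to 3 counts, so that the estimate depends on the prior count of the fit.

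Whether the response to anti-CD3 differs with anti-LAIR-1 is the question of the interaction, given below, which was called for 0 of 8 factors. The comparison between the stimulated groups asks whether levels under anti-CD3 differ between anti-LAIR-1 and isotype. Irf8 and Zeb2 were lower with anti-LAIR-1 than with isotype, and no other factor passed the test. The call of Irf8 held in 9 of 10 other settings and that of Zeb2 in 4 of 10. With 1 library left out they held in 3 of 6 and 2 of 6 fits. Irf8 averaged 255 ± 50.1 CPM with anti-LAIR-1 and 370 ± 57.2 CPM with isotype (mean ± SD, n = 3), a fold of 0.690. Zeb2 averaged 18.0 ± 4.48 and 28.2 ± 5.26 CPM, a fold of 0.634. Of 8 factors tested, 2 were thus lower and 0 higher, where 1.86% and 3.90% of all genes tested were called in these directions. The estimate was below 0 for 7 of the 8 and for 4345 of all 8800 genes tested. The median was -0.25 on the log2 scale against 0.00 over all genes. Of the 7, Runx3 stood at -0.0035 and changed sign under other settings. Without anti-CD3 the estimate was below 0 for 5 of the 5 factors tested and for 4422 of 8770 genes, with medians of -0.34 and 0. The interaction estimates of the 8 factors were above 0 for 4 and below for 4. Their median was -0.01, against 0.04 over all genes.

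The fall of Irf8 was -0.54 on the log2 scale (SE 0.12, 95% interval -0.79 to -0.28, adjusted p = 0.0137). It was seen in each mouse, at -0.39, -0.72 and -0.51. With the mouse as a block the adjusted p was 2.87e-04 in edgeR, and DESeq2 without the block gave 0.116. Leaving out mouse 1 or mouse 2 with isotype, or mouse 2 with anti-LAIR-1, raised the edgeR adjusted p to 0.0629, 0.0698 and 0.0652. The summed dendritic and myeloid markers were 11.4 to 18.2 CPM with isotype and 7.61 to 13.5 CPM with anti-LAIR-1. Their part in the difference was not tested.

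The fall of Zeb2 was -0.66 on the log2 scale (SE 0.19, 95% interval -1.05 to -0.27, adjusted p = 0.0464). The mice did not contribute alike: the within-mouse differences were -0.03, -1.28 and -0.62. The call was lost with the mouse as a block (edgeR adjusted p = 0.0539, DESeq2 0.2635) and in DESeq2 without the block (0.0565). It was also lost with library totals only, with all 12 libraries in 1 fit and after thinning. Leaving out mouse 2 or mouse 3 with isotype (edgeR adjusted p = 0.191 and 0.12) lost it too, as did mouse 2 or mouse 3 with anti-LAIR-1 (0.187 and 0.0732).

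Tbx21 and Eomes had lower estimates that did not pass. For Tbx21 the log2 difference was -0.48 (95% interval -1.08 to 0.13, adjusted p = 0.39) and the 3 mice differed by -0.18, -0.39 and -1.01. For Eomes it was -0.39 (-0.67 to -0.11, adjusted p = 0.0964), with -0.39, -0.34 and -0.49 in the mice and no overlap between the groups. With the mouse as a block, Eomes passed the test (log2 -0.42, edgeR adjusted p = 0.0428).

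For the remaining factors no difference was called. The log2 difference was -0.11 for Irf4 (95% interval -0.27 to 0.06, adjusted p = 0.512), -0.11 for Id2 (-0.46 to 0.23, adjusted p = 0.778) and 0.00 for Runx3 (-0.34 to 0.33, adjusted p = 0.994). Batf alone had a higher estimate, 0.58 (-0.05 to 1.21, adjusted p = 0.308), and was higher in all 3 mice. The interval of Irf4, the narrowest of these, leaves out changes of the size estimated for Irf8.

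**Figure D3:**
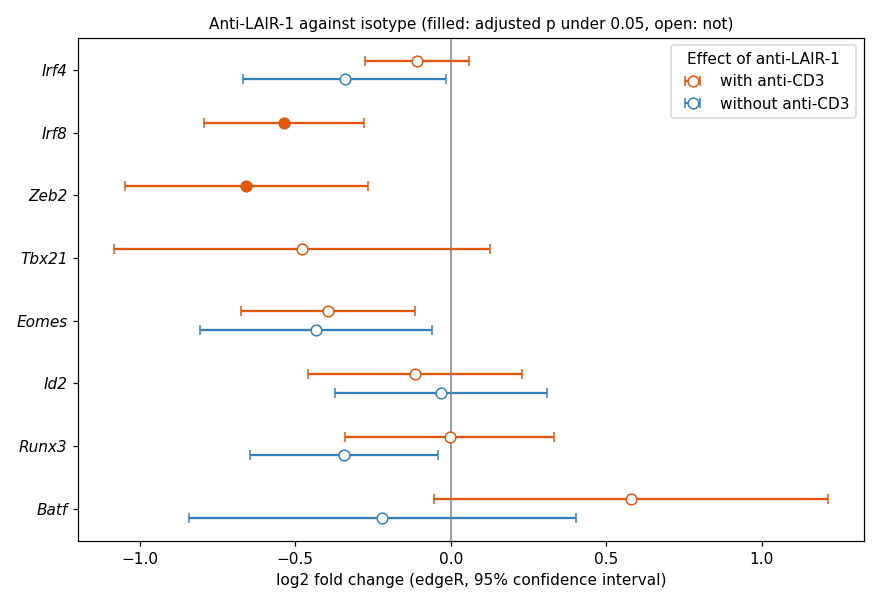
Log2 fold change of anti-LAIR-1 over isotype (x axis, edgeR estimate with 95% confidence interval) for each tested factor (y axis), with and without anti-CD3. With anti-CD3, the filled points of Irf8 (-0.54) and Zeb2 (-0.66) are the calls. Irf8, Zeb2 and Tbx21 have no point without anti-CD3, where their counts were too low to test.

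Without anti-CD3, anti-LAIR-1 changed no factor by the adjusted test. Of 5 factors tested by edgeR, 0 passed in either direction, as did 0% of all genes. At an unadjusted p under 0.05, 3 of the 5 and 384 of 8770 genes passed, while DESeq2 called 0 of 9 factors and had 0 of 9 at an unadjusted p under 0.05. The 3 were Eomes (log2 -0.43, 95% interval -0.81 to -0.06, unadjusted p = 0.0245), Runx3 (-0.34, -0.65 to -0.04, unadjusted p = 0.0271) and Irf4 (-0.34, -0.67 to -0.02, unadjusted p = 0.0407), each with an edgeR adjusted p of 0.997. For Eomes the estimates with and without anti-CD3, -0.39 and -0.43, lay close together, and the interaction was 0.04 (95% interval -0.43 to 0.51, adjusted p = 0.969).

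Whether the effect of anti-LAIR-1 differs with and without anti-CD3 was tested over all 12 libraries. The interaction was called for 0 of 8 factors by edgeR and for 0 by DESeq2, with 0 of 8 at an unadjusted p under 0.05, while 1.82% of all genes were called higher and 0.249% lower. For Irf8 it was -0.83 (95% interval -2.12 to 0.46, adjusted p = 0.673), so the call with anti-CD3 is not shown to differ from the effect without it. For Zeb2 (-1.50, 95% interval -4.64 to 1.64) and Tbx21 (-3.82, -8.07 to 0.43) the intervals were wide, with at most 3 counts in each unstimulated group.

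Genes that these factors are known to regulate, or to work with, were followed as lists. Of 26 effector genes, 16 were tested with anti-CD3 and isotype: 12 were higher and 2 lower (35.3% and 36.1% of all genes), with a median log2 change of 4.68. Ifng, Gzmb, Il12rb1, Prf1 and Cxcr3 had 0 to 9 counts over the unstimulated group and entered the test through their stimulated libraries, so the count and the median are partly set by the filter. Ifng, the gene of interferon-γ, went from 0 counts to 38.1 to 38.6 CPM, and the chemokine genes Ccl4 (8.46), Ccl3 (8.44) and Xcl1 (7.96) had the next largest log2 changes. Il18r1, an IL-18 receptor gene, fell by 3.93 and Ctla4, an inhibitory receptor gene, fell by 1.42 on the log2 scale. With anti-LAIR-1 the counts were 12 higher and 3 lower (36.4% and 36.3% of all genes), with a median of 3.97.

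Between the stimulated groups, 7 of 15 effector genes were lower with anti-LAIR-1 and 0 higher (1.86% and 3.90% of all genes), with a median of -0.33 against 0.00 over all genes. Gzmb, which encodes the cytotoxic protease granzyme B, averaged 41.4 ± 11.1 CPM with isotype and 6.48 ± 1.78 CPM with anti-LAIR-1 (log2 -2.65, SE 0.22, adjusted p = 1.62e-06). Ifng averaged 38.4 ± 0.277 and 13.9 ± 3.72 CPM (log2 -1.44, SE 0.17, adjusted p = 4.09e-05). Ccl3 fell by 0.86 (adjusted p = 1.39e-05) and Nkg7, a gene of cytotoxic granules, fell by 0.69 (adjusted p = 3.68e-05). Gzma, Gzmk, Klrg1 and S1pr5 were not analysed here.

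The 10 genes of the naive state, which include receptors for lymph node homing and factors of quiescence, all fell with anti-CD3 and isotype (10 of 10, median -3.22, against 36.1% of all genes), and 9 of 10 did so with anti-LAIR-1 (median -2.48, against 36.3%). Between the stimulated groups, 7 of 10 were higher with anti-LAIR-1 and 0 lower (3.90% and 1.86% of all genes), with a median of 0.65. S1pr1, the receptor for egress from lymphoid organs, averaged 23.2 ± 6.89 CPM with isotype and 90.7 ± 11.6 CPM with anti-LAIR-1 (log2 1.97, adjusted p = 1.62e-06), against 1136 ± 48.0 CPM with isotype alone. Il7r, the interleukin-7 receptor, was higher by 1.33 (adjusted p = 0.00124) and Klf2, a factor of quiescence, by 1.02 (adjusted p = 2.82e-05).

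Partners and antagonists of the factors, 27 genes, were mixed. With anti-CD3 and isotype 7 of 22 tested were higher and 7 lower (median 0.18), near the 35.3% and 36.1% of all genes, led by Atf3 (3.58), Bhlhe40 (2.68), Rbpj (2.15) and Runx1 (0.97) on the log2 scale and, among those that fell, Irf7 (-2.33), Irf2 (-1.91), Irf9 (-1.28) and Tcf3 (-1.15). With anti-LAIR-1 12 of 22 were higher and 6 lower (36.4% and 36.3% of all genes), with a median of 0.35. Between the stimulated groups, 2 of 24 were higher and 1 lower with anti-LAIR-1 (3.90% and 1.86% of all genes), or 4 and 1 in edgeR with the mouse as a block. Bcl6, a repressor that opposes BLIMP-1, was higher with anti-LAIR-1, at 17.2 ± 3.90 against 8.44 ± 1.53 CPM (log2 1.07, SE 0.22, adjusted p = 0.00654). Id3, the counterpart of Id2 in memory precursors, was higher too, at 167 ± 7.46 against 125 ± 3.82 CPM (log2 0.42, SE 0.08, adjusted p = 0.00358). Atf3, a stress-induced factor of the ATF and AP-1 families, was lower, at 10.4 ± 1.79 against 20.2 ± 5.82 CPM (log2 -1.01, SE 0.22, adjusted p = 0.00862). Without anti-CD3, 0 genes of any of the 3 lists were called by edgeR or by DESeq2, and at an unadjusted p under 0.05 edgeR gave 3 of 21 partners, 2 of 11 effector genes and 1 of 10 naive state genes. Spi1 was not analysed here.

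**Figure D4:**
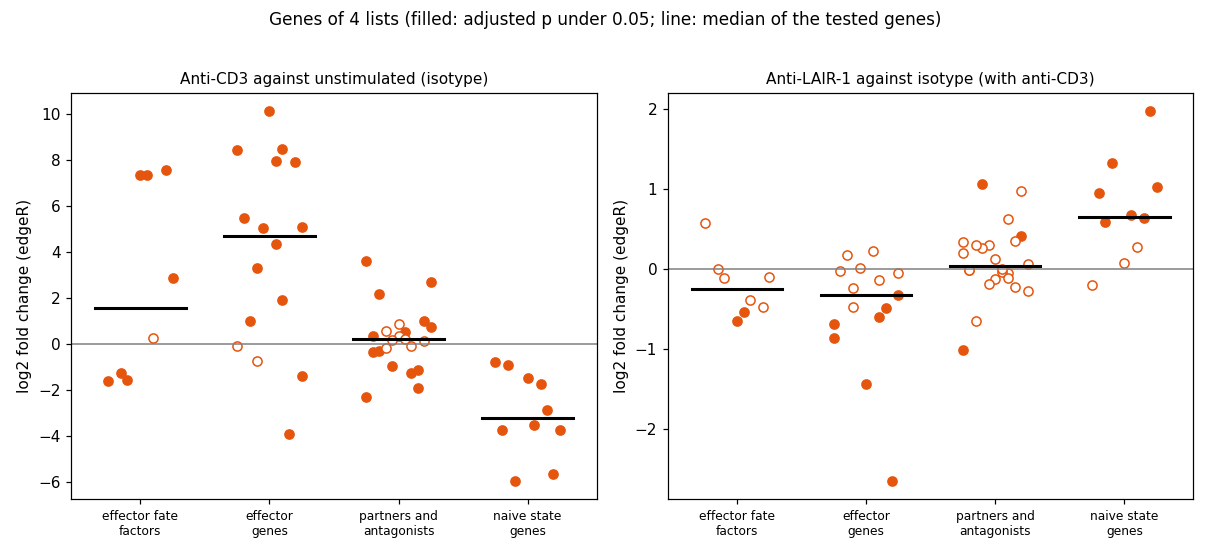
Log2 fold change (y axis, edgeR) of each tested gene in 4 lists (x axis), with the median of each list as a line. The left panel, anti-CD3 against unstimulated with isotype, shows medians of 1.53, 4.68, 0.18 and -3.22. The right panel, the stimulated groups, anti-LAIR-1 over isotype, has its own scale and shows medians of -0.25, -0.33, 0.03 and 0.65.

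The genes whose levels followed each factor most closely over the 12 libraries were found by Pearson correlation of log2 CPM among 9223 genes. They were Atp5b (r = 0.998) and Abce1 for Irf4, Nol11 (0.996) and Cirh1a for Irf8, Spata5 (0.996) and Nolc1 for Zeb2, and Lta (0.995) and Ppp5c for Tbx21. For the genes that fell they were Pkp3 (0.973) and Hsd17b11 for Batf, Socs3 (0.974) and Kdm3a for Id2, and Zfp354c (0.971) and Slfn9 for Runx3. Eomes had no gene as close, the nearest being 8030462N17Rik (0.899) and Ranbp2 (0.873). The 12 points share 3 mice and fall into stimulated and unstimulated libraries, so that a high r describes that contrast.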

How the data were processed

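RNA of 12 wells (4 conditions, 3 mice, 1 library per mouse and condition) was measured by adapted CEL-seq. The authors aligned reads to the mm10 transcriptome with BWA MEM, discarded reads that mapped equally well to several places, and deposited raw read counts per gene symbol, without normalization. Collapsing of reads by molecular identifier was not stated, so intervals and limits from counts cover counting error only. Genes overlapping another gene were checked in GENCODE M21.

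Groups came from the labels. Pairs of groups were fitted in edgeR 4.0.16 (R 4.3.3) with TMM scaling, filterByExpr (minimum count 10) and quasi-likelihood F-tests; p-values were adjusted by the Benjamini-Hochberg method, and genes under 0.05 were called. The interaction was fitted over all 12 libraries. All of the tested genes, 8690 to 9223 per fit, entered the adjustment. CPM are scaled by TMM. With 3 libraries per group a two-sided exact permutation test cannot go below 0.1, so none was used. Ratios of summed counts have exact 95% intervals for counting error, with a floor of 3 counts over a group at 0.

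The mouse numbers in the labels pair the libraries. Deviations of libraries of the same mouse from their group means correlated across genes at a mean r of 0.0271 to 0.0746 over the 4 comparisons of groups. The study's methods state no block, so the reported fits have none.

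Alternatives were DESeq2 1.42.0, with and without the mouse as a block, edgeR with the block, other scalings, other filters, all 12 libraries in 1 fit, thinning to the smallest library, and leaving out each library. The edgeR and DESeq2 fits were tested on simulated data with 200 genes changed 2-fold.

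The 10 factors, the gene lists and the tests were chosen with earlier results of these data known. All factors are named. From the other lists the text names called genes, at most the 4 highest and the 4 lowest in a comparison, and genes not analysed here. The interaction calls of the lists are also named. The result of 1 gene of the lists is not reported here, though the counts and medians of its lists include it.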

Additional observations from a re-analysis of the deposited data

Results flagged for a closer look

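The effect of anti-LAIR-1 with and without anti-CD3 differed for the 9 list genes given here by the interaction test over all 12 libraries (edgeR adjusted p under 0.05), which none of the 8 tested factors passed. Each value is the log2 effect of anti-LAIR-1 with anti-CD3 minus that without it, and it uses the same stimulated libraries as the comparison between the stimulated groups. For 4 effector genes the difference was negative: Ccl3 -1.52 (adjusted p = 0.0113), Ccl4 -1.16 (0.00924), Nkg7 -0.75 (0.0256) and the chemokine gene Xcl1 -0.73 (0.003). In the fits of pairs of groups, Ccl3 was -0.86 and Ccl4 -0.60 with anti-CD3. Without it they were 0.67 and 0.56, neither called (edgeR adjusted p = 0.997 each), so part of these 2 differences lies in the unstimulated groups. For 5 genes of the naive state it was positive: S1pr1 1.92 (2.12e-07), Il7r 1.17 (0.01), Tcf7, which encodes TCF-1, 0.71 (0.0191), Klf2 0.69 (0.0417) and Lef1 0.64 (0.00209).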

How the results depend on the processing

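Of the values recomputed under other settings, 570 kept their direction and call, 4 gained a call, 17 lost one and 25 changed sign, none of the last past the threshold. With at least 10 counts in every library, 4 factors were called with anti-CD3 in each comparison, since Irf8, Tbx21 and Zeb2 drop out of that test. Between the stimulated groups the 2 calls became 1, that of Irf8, with library totals only, all 12 libraries in 1 fit, thinning, or DESeq2 with the mouse as a block. They became 0 in DESeq2, and 0 to 2 when a library was left out. The edgeR fit with the replicate block called 2, keeping Irf8, losing Zeb2 and gaining Eomes, and changed no other call of a factor. All-gene calls there, 507 in the reported fit, were 321 after thinning, 212 in DESeq2 with the block and 293 to 427 without a library (293 without mouse 2 with isotype). Without anti-CD3 they were 5 with no filter and 0 to 1 without a library. Interaction calls, 191, were 111 after thinning and 103 to 186 without a library (103 without mouse 3 with both antibodies). The causes of these shifts were not tested.

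Estimates near 0 changed sign. Runx3 with anti-CD3 became 0.0101 with library totals, 0.00293 with the upper quartile, 0.00453 with at least 10 counts, 0.00387 with all libraries, 0.024 after thinning and -0.19 to 0.11 without a library. Without anti-CD3, Id2 became 0.0125 (edgeR) and 0.0244 (DESeq2) with the block and -0.19 to 0.31 without a library, and Batf -0.40 to 0.0151. Leaving out a library, interactions ranged from -1.32 to 0.0128 for Irf8, -0.0645 to 0.19 for Eomes and -0.41 to 0.0876 for Id2. Upper-quartile scaling moved the median of all genes with anti-CD3 from -0.03 to -0.20 with isotype and from -0.04 to -0.24 with anti-LAIR-1, and library totals moved it to -0.12 and -0.15. The 14 calls of factors with anti-CD3 held under both. DESeq2 tested Prdm1 and called it lower with anti-CD3 and anti-LAIR-1. Prdm1, and unstimulated Irf8, Tbx21 and Zeb2, are limited by depth.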
